A study of Mus musculus with 12 samples.

Results

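The proteasome subunit genes of the mouse were followed across 12 RNA-sequencing libraries of mammary tumour cells treated with a Met inhibitor, an FGFR inhibitor or both. The members were the rows of the gene count table whose symbol is Psma, Psmb, Psmc or Psmd followed by a number, with the inducible subunits Psmb8, Psmb9 and Psmb10 set apart, which gave 36 of the 55573 genes in the table. Of these 36 genes, 34 passed the filter on low counts, as did 13836 genes in all. Psma8, a testis form of an alpha subunit, had 0 counts in all 12 libraries, which allows up to 3 counts in each, and Psmb11, the beta subunit of the thymus, had 2, 2 and 1 counts in the Combo libraries of A1005, A1129 and A1471 and 0 in the others. Neither was tested.

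The libraries came from tumourspheres, floating cultures grown in serum-free medium with EGF and bFGF, of 3 cell lines named A1005, A1129 and A1471. Each line was derived from a separate spindloid mammary tumour, a tumour of spindle-shaped, mesenchymal cells, and all carry the genotype MMTV-Metmt;Trp53fl/+;Cre, in which the mammary tumour virus promoter drives a mutant Met receptor and 1 allele of Trp53 is floxed. The 4 treatments, each given for 24 h, were DMSO, Crizotinib, PD173074 and Combo, which is Crizotinib with PD173074, and there was 1 library per line and treatment, so that n = 3 lines for every treatment. Crizotinib inhibits the Met receptor and PD173074 the FGF receptors, and the medium of every group held the FGFR ligand bFGF. The mesenchymal markers Vim, Zeb1, Twist1, Fn1, Met and Fgfr1 had at least 590 counts in every library, whereas the epithelial markers Epcam, Cdh1, Krt14 and Cldn7 had at most 29. Krt8 and Krt18 had 17 to 748, and Twist1 fell with Combo (log2 change -1.09 ± 0.15 SE, edgeR adjusted p = 0.0016) while the other 5 mesenchymal markers were not called in that fit. In a fit with the cell line as a block, Krt18 fell with PD173074 (-1.07 ± 0.14, edgeR adjusted p = 0.0073) and with Combo (-0.996 ± 0.14, edgeR adjusted p = 0.00022), in 3 of 3 lines each. That fit also called 1 of the 6 mesenchymal markers higher with PD173074, beside 1.62% of all genes. With PD173074, 3 of these 6 had a positive log2 change in the unpaired fit and 3 a negative one, and Met was higher in every line. The part of these markers in the results was not tested. Total counts per library lay between 13031492 and 17750476, and a tested proteasome gene had between 489 and 8810 counts in a library.

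The proteasome degrades proteins tagged with ubiquitin. Its barrel-shaped core is built of rings of alpha subunits, which gate the entrance, and rings of beta subunits, among which Psmb5, Psmb6 and Psmb7 carry the proteolytic sites. A cap at the end of the barrel, made of a base with a ring of ATPases (the Psmc genes) and a lid (most Psmd genes), binds tagged proteins, removes the ubiquitin and threads the chain into the core. Proteasome genes also belong to many annotated gene sets of DNA replication and cell cycle progression, because degradation of licensing factors and cyclins is part of these processes.

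The members lie on 16 chromosomes, with 6 of them on chromosome 11. Psmb5 (chr14:54614119-54618022, mm10, minus strand) and Psmb11 (chr14:54621433-54629556, plus strand) are separated by 3410 bases, and Psmd10 (chrX:140948429-140956728, minus strand) is the member on the X chromosome. For 8 members the annotated gene body overlaps another protein-coding gene, such as Psmd13 with Sirt3 and Psmd9 with Hpd, and whether the counting used strand is not given in the sources used here, so reads in the shared stretches could not be assigned with certainty.

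Promoter sequences were available for 29 of the 36 members from RefSeq (GRCm38.p6, from 250 bases before to 50 after the start site). Psma8, Psmb1, Psmb2, Psmb7, Psmc3, Psmd3 and Psmd7 had no entry. The promoters shown are those of the catalytic subunits Psmb5 and Psmb6, of Psmd12, one of the genes lowered most by Combo, and of Psmd10, which went the other way. All are written 5′ to 3′ along the gene, and capitals mark matches on either strand of the antioxidant response element core TGACNNNGC (read by NRF1 and NRF2, the products of Nfe2l1 and Nfe2l2), the ETS core CCGGAAG and the CCAAT box CCAAT.
Psmb5 promoter, chr14:54617946-54618245 (minus strand): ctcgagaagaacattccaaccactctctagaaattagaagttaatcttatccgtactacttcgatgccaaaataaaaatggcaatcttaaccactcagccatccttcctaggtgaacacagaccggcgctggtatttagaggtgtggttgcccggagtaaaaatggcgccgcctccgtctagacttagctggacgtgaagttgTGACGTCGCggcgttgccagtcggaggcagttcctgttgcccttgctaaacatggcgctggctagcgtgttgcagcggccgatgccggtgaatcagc
Psmb6 promoter, chr11:70525107-70525406 (plus strand): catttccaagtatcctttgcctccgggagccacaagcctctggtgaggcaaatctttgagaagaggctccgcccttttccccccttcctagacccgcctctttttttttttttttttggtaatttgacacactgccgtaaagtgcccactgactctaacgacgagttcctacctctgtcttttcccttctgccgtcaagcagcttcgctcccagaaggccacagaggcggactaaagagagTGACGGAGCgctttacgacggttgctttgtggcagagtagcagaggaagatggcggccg
Psmd12 promoter, chr11:107479278-107479577 (plus strand): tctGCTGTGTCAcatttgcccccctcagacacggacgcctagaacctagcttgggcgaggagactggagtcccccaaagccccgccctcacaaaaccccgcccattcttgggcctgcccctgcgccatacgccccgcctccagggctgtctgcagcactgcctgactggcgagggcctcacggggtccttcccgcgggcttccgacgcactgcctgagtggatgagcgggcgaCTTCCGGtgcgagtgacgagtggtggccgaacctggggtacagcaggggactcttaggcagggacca
Psmd10 promoter, chrX:140956662-140956961 (minus strand): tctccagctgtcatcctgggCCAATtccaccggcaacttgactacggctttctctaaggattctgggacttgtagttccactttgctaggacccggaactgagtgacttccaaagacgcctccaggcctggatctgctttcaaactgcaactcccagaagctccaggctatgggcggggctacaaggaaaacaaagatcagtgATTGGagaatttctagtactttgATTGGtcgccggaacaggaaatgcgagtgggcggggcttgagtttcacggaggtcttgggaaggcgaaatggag

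TGACNNNGC occurred in the promoters of 5 of the 29 genes (Psmb5, Psmb6, Psmc6, Psmd9 and Psmd12). Of all 32851 RefSeq mouse promoters of this length 12.4% held it, as did 14.3% of those of tested genes. In Psmb5 it began 47 bases and in Psmb6 9 bases before the start site. CCGGAAG occurred in 10 of the 29 genes (Psma6, Psmc1, Psmc2, Psmc6, Psmd2, Psmd4, Psmd6, Psmd11, Psmd12 and Psmd13), beside 8.86% of all promoters and 17.4% of those of tested genes. CCAAT was found in 12 of the 29 genes, beside 37.4% of all promoters and 38.2% of those of tested genes. Psmd10 had 3 matches. Psmd14, which fell with Combo and whose promoter is not shown, held CCAAT and the GC box but neither TGACNNNGC nor CCGGAAG. Whether a motif goes with the change of a gene was not tested. The GC box GGGCGG was found in 18 of the 29 genes, beside 35.7% of all promoters and 62.6% of those of tested genes. These shares count promoters, and the 29 genes had 31. Of the 31, TGACNNNGC occurred in 5, CCGGAAG in 11, CCAAT in 12 and the GC box in 18. Within the members' windows, a match of TGACNNNGC overlapped a match of another of these motifs at 1 place. Overlaps among the other motifs were not counted.

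Levels under DMSO are given as CPM (read counts relative to the library's size, scaled with trimmed-mean factors) per kilobase of annotated exons, since only a level per length can be compared between genes. Per kb of exons Psma5, an alpha subunit, stood highest at 219 ± 29.8 CPM per kb (SD, n = 3), followed by Psma6 at 196 ± 30.6 and Psmb4 at 173 ± 17.9. Psmd9, an assembly chaperone of the base, stood lowest at 7.03 ± 1.57, and Psmd5, another such chaperone, was next at 20.1 ± 3.70. The median over the 34 genes was 73.7 CPM per kb. The highest level was 31.2 times the lowest per kb of exons and 6.13 times per kb of coding sequence, so the span depended on the length used. The order did so too. Per kb of coding sequence Psma7 stood highest at 469 CPM, followed by Psmb4 at 426, Psmb1 at 412 and Psma5 at 401, and Psmd10 at 80.0 was next above Psmd9 at 76.5, with Psmd5 at 96.1. Psmd9 was lowest by both lengths.

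**Figure D1:**
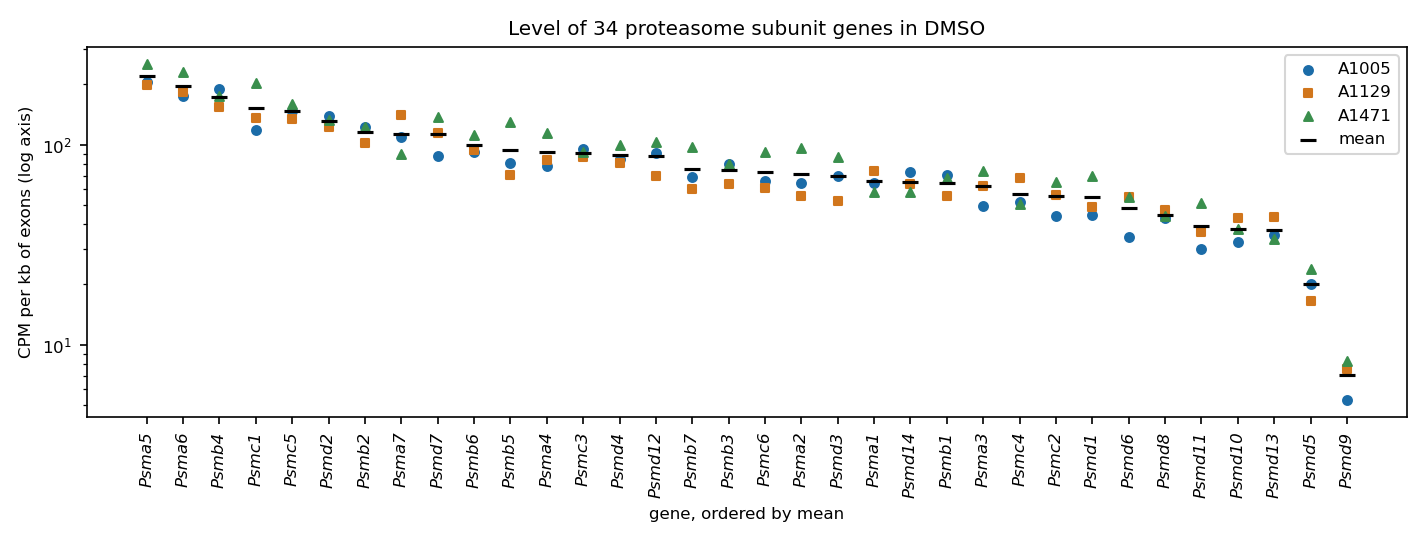
Level of the 34 tested proteasome subunit genes in the 3 DMSO libraries, in CPM per kb of exons on a log axis, with 1 point per cell line and a dash for the mean. Psma5 stands at the left end at 219 and Psmd9 at the right end at 7.03, and the median ratio of the highest to the lowest line is 1.40.

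The 3 lines differed in these levels before any inhibitor was added. The ratio of the highest to the lowest line under DMSO had a median of 1.40 over the 34 genes and ranged from 1.09 for Psmd8 to 1.85 for Psmb5. A1471 was the highest line for 22 genes and the lowest for 5. Summed over the 34 genes, the 3 DMSO libraries (A1005, A1129 and A1471) reached 7270, 7240 and 8758 CPM.

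The summed level was lower under each inhibitor in every line. Set against the DMSO library of its own line, it was 96.4%, 91.1% and 93.2% with Crizotinib (A1005, A1129 and A1471), 90.5%, 94.3% and 89.5% with PD173074, and 86.8%, 72.7% and 68.4% with Combo. The mean was 93.6% ± 2.67 with Crizotinib, 91.4% ± 2.50 with PD173074 and 75.9% ± 9.61 with Combo (SD, n = 3). The 3 Combo libraries, at 6307, 5263 and 5988 CPM, lay below all 3 DMSO libraries, whereas those of the single inhibitors overlapped with DMSO. In whole spheres, fewer cells of a type and less RNA per cell cannot be told apart.

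**Figure D2:**
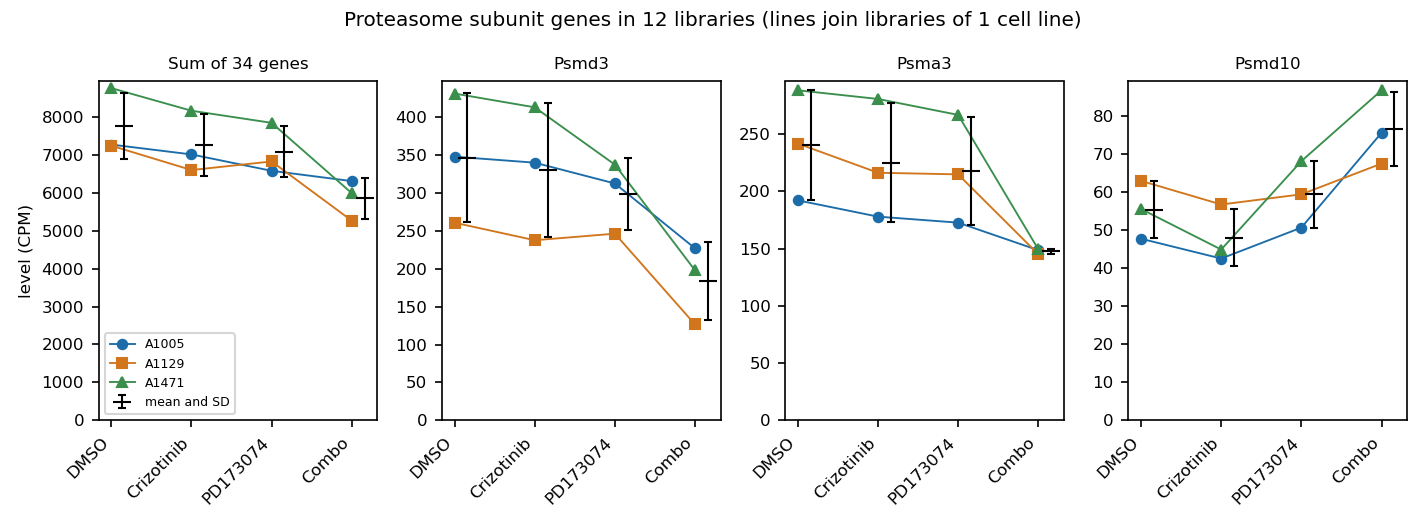
Level in CPM in each of the 12 libraries for the sum of the 34 genes and for Psmd3, Psma3 and Psmd10, on linear axes from 0, with 1 marker per cell line, lines joining the libraries of a line, and the mean and SD (n = 3) in black. The Combo libraries lie below the DMSO libraries for the sum, Psmd3 and Psma3 and above them for Psmd10.

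Does the Met inhibitor alone lower these genes, and do they account for the small decrease seen in replication gene sets with Crizotinib? All 34 tested members had a negative log2 fold change with Crizotinib against DMSO, from -0.21 for Psmd10 to -0.001 for Psmd5, with a median of -0.099, while the median of all genes tested was -0.001 and that of the 4580 genes within the level range of the members was -0.002. Scaling by DESeq2 size factors left all 34 negative, and scaling by total counts left 33, with Psmd5 on the positive side. None of the 34 passed the test. In the unpaired fit (edgeR's quasi-likelihood test, Benjamini-Hochberg adjusted p under 0.05) 0 members and 0 of all genes were called and 0 members had an unadjusted p under 0.05. DESeq2 and limma-voom also called 0 members. A fit that takes the cell line as a block, so that each library is compared within its line, called 0 members and gave none an unadjusted p under 0.05. P-values of the unpaired fit measure the spread between these 3 lines. Those of the block fit measure the spread that remains once the level of each line is taken out. The median standard error of a member's change was 0.22 in the unpaired fit and 0.10 with the block, so the median change was smaller than or about equal to its error.

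Line by line, 28 of the 34 members were lower with Crizotinib in all 3 lines and none was higher in all 3, beside 17.7% of all genes tested that were lower in all 3. Relative to its own DMSO library, each line had a median change below 0, namely -0.07 for A1005, -0.14 for A1129 and -0.11 for A1471. All 34 members were lower in A1129, 32 in A1471 and 30 in A1005. Each line rests on 1 library per treatment, and the decrease was beyond the 95% counting interval for 13 members in A1005, 30 in A1129 and 27 in A1471, intervals that cover counting error only.

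The smallest unadjusted p with Crizotinib in the block fit belonged to Psmb3, Psmd13 and Psmc3, which are named for that reason. Psmb3, a non-catalytic subunit of the beta ring, was at 184, 147 and 184 CPM under DMSO in A1005, A1129 and A1471 and at 168, 127 and 163 with Crizotinib, a log2 change of -0.17 ± 0.09 (SE, block, unadjusted p = 0.075, edgeR adjusted p = 1). Psmd13, a lid subunit, went from 120, 146 and 114 to 112, 121 and 98.2, a log2 change of -0.19 ± 0.10 (block, unadjusted p = 0.076, edgeR adjusted p = 1). Psmc3, an ATPase of the base, went from 248, 225 and 239 to 233, 203 and 211, a log2 change of -0.14 ± 0.08 (block, unadjusted p = 0.12, edgeR adjusted p = 1). Each of the 3 genes was lower with Crizotinib in every line, and in each the range of the Crizotinib libraries overlapped that of DMSO.

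In the fit over all 3 lines, the replication gene sets had negative medians with Crizotinib both with and without the proteasome genes. A total of 10 Reactome sets of replication and S phase entry were examined, of which 7 hold proteasome genes and 3 hold none, together with a list of 47 genes of the replication machinery written by hand. The set DNA Replication had 98 tested genes, of which 34 were members and 9 were other proteasome genes. Its median log2 change with Crizotinib was -0.100 for the whole set, -0.099 for the 34 members and -0.096 for the 55 genes left after all proteasome genes were removed. Of those 55 genes, 49 were lower. In S Phase, with 116 tested genes, the median went from -0.09 for the whole set to -0.06 without the proteasome genes, the largest shift among the 7 sets. In Orc1 removal from chromatin it went from -0.10 to -0.08, and in Assembly of the pre-replicative complex, where members make up 54.0% of the tested genes, from -0.10 to -0.09.

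The 3 sets that hold no proteasome gene stood at similar values with Crizotinib. The median was -0.10 for Activation of the pre-replicative complex (29 genes, 27 lower), -0.11 for Lagging Strand Synthesis (21 genes, 20 lower) and -0.09 for Unwinding of DNA (11 genes, 9 lower). In the list of 47 replication machinery genes the median was -0.10 and 42 were lower, with 0 called by edgeR in either fit and 0 (unpaired) and 1 (block) at an unadjusted p under 0.05. The sets share many genes with each other, so they are not separate observations, and no test was made of the difference between the medians.

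The order of the members and the remaining genes differed between the lines. For DNA Replication without proteasome genes the medians with Crizotinib were -0.11, -0.09 and -0.09 in A1005, A1129 and A1471, beside -0.07, -0.14 and -0.11 for the members. The remaining genes had the lower median in A1005 and the members had it in A1129 and A1471. Without A1005 the median was -0.123 for the members, -0.107 for the whole set and -0.079 for the 55 remaining genes, so the closeness of these medians rested on that line.

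With Combo the proteasome genes and the rest of these sets stood far apart. The median log2 change with Combo was -0.40 for the members and -1.39 for the 55 remaining genes of DNA Replication, and the whole set stood at -0.63. In Assembly of the pre-replicative complex the whole set stood at -0.44 and its 20 remaining genes at -1.41. All 47 genes of the replication machinery list were lower with Combo, with a median of -1.44. By line, the 55 remaining genes of DNA Replication had Combo medians of -1.39, -1.28 and -1.44, close to one another, beside -0.20, -0.49 and -0.57 for the members. In the unpaired fit 36 of the 47 machinery genes fell, beside 8.28% of all genes called lower, and all 47 fell with the block, beside 26.2%.

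**Figure D3:**
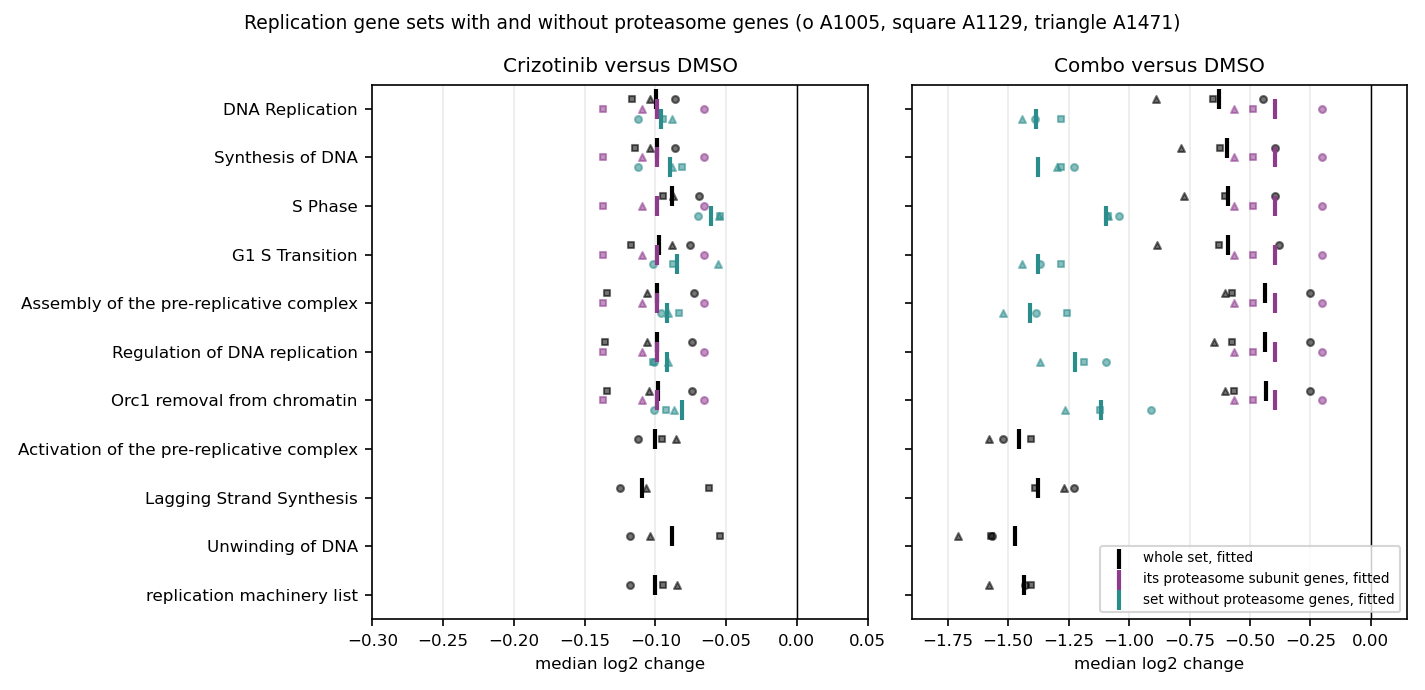
Median log2 change against DMSO of 10 Reactome sets and of the replication machinery list, with Crizotinib (left) and Combo (right), for the whole set, for its proteasome subunit genes and for the set without proteasome genes. Bars are medians of fitted changes and symbols are medians within each line. With Crizotinib the 3 values of a set lie close together, between -0.06 and -0.10, and with Combo the proteasome genes lie at -0.40 and the remaining genes at -1.09 or below.

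With PD173074 alone, 33 of the 34 members had a negative log2 fold change, with a median of -0.14, and Psmd10 stood at 0.10. In the unpaired edgeR fit 0 members were called and none had an unadjusted p under 0.05. The block fit called 0 members too, with 2 at an unadjusted p under 0.05, while 0.520% of all genes were called lower and 1.62% higher. DESeq2 and limma-voom, with and without the block, also called 0 members. The 2 genes were Psma7, an alpha subunit, at -0.25 ± 0.10 (SE, block, unadjusted p = 0.028, edgeR adjusted p = 0.24) and Psmb3 at -0.23 ± 0.09 (block, unadjusted p = 0.0235, edgeR adjusted p = 0.23). By line the medians were -0.14, -0.10 and -0.15 (A1005, A1129 and A1471). Crizotinib and PD173074 were compared with the same DMSO libraries.

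With Combo, 32 of the 34 members were lower than under DMSO, with a median log2 change of -0.40, and Psmd8 and Psmd10 were higher. The median of all genes tested was 0.02, and that of the 4580 genes within the level range of the members was -0.13, with 2706 of them lower. The unpaired edgeR fit called 0 of the 34 members, although 16 had an unadjusted p under 0.05, and 8.28% of all genes were called lower and 6.10% higher. Limma-voom also called 0. DESeq2 called 5 lower and 1 higher, and the share of all genes that DESeq2 called is not given here. In the block fit 26 members fell and 1 rose, beside 26.2% of all genes called lower and 28.6% called higher. Among the 4580 genes within the level range of the members, the block fit called 1780 lower and 1097 higher. The unpaired edgeR fit called 627 of them lower and 278 higher. The libraries of a line deviated together from the treatment means, and the spread between lines under DMSO, described above, is part of the error of the unpaired fit. Every Combo library lay below every DMSO library for 20 members and above for 1, which was so for 16.1% and 13.8% of all genes.

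The call of 26 lower members rested in part on A1471. Without A1471 the block fit called 13 members, all lower. Without A1129 it called 19, of which 17 were lower, and without A1005 it called 25, all lower. A1005, with the median nearest to 0, was the line with the least decrease or the largest increase for 30 of the 34 genes.

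**Figure D4:**
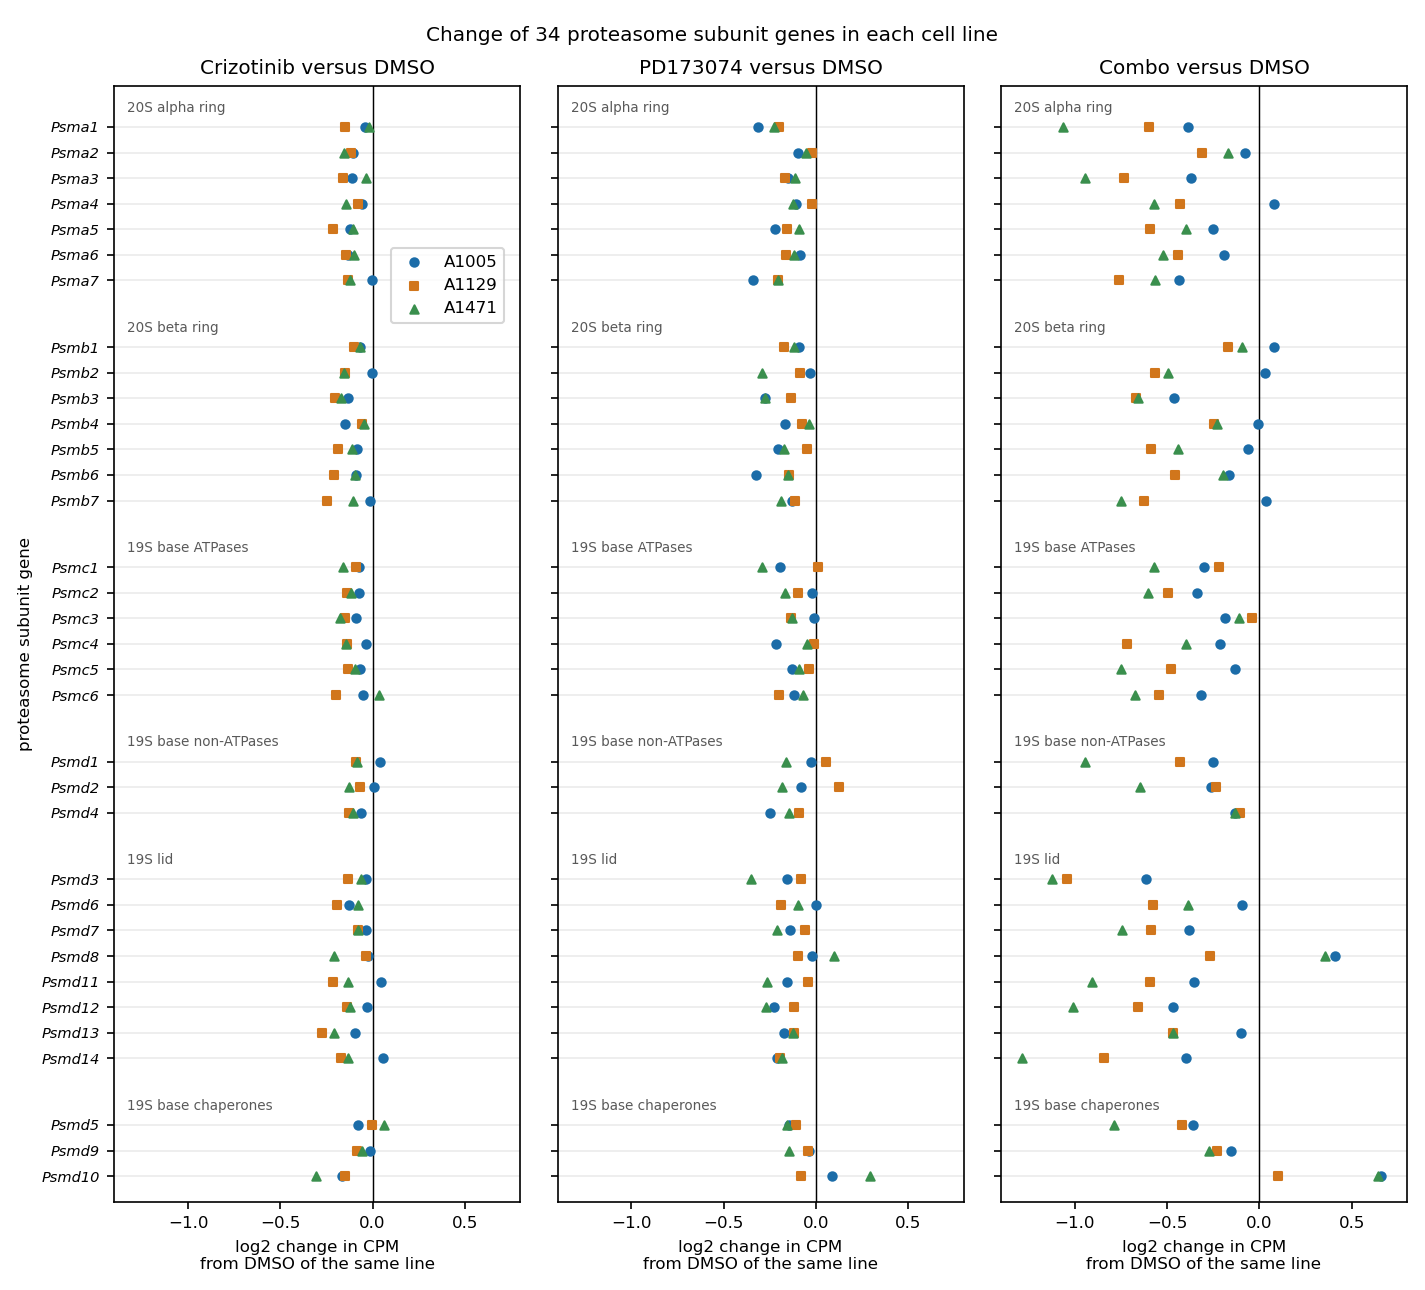
Log2 change in CPM, within each line, from DMSO for each of the 34 genes, grouped by their place in the particle, with 1 panel per treatment and 1 symbol per line. Points of the single inhibitors lie between -0.35 and 0.29, those of Combo reach -1.28 for Psmd14 in A1471, and Psmd10 is to the right of 0 in all 3 lines with Combo.

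The genes of the lid had the lowest median with Combo. The median log2 change was -0.62 over the 8 lid genes, -0.45 over the 6 ATPases, -0.40 over the 7 alpha subunits, -0.37 over the 3 other base subunits, -0.31 over the 7 beta subunits and -0.23 over the 3 base chaperones. With the block, 7 of the 8 lid genes fell, as did 5 of the 6 ATPases, 5 of the 7 alpha subunits, 5 of the 7 beta subunits, 2 of the 3 other base subunits and 2 of the 3 base chaperones. Of all genes, 26.2% were called lower in that fit, as were 1780 of the 4580 genes within the level range of the members. The differences between these groups were not tested.

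Psmd3 (ENSMUSG00000017221, chr11:98682554-98695979, mm10, plus strand), a scaffold subunit of the lid, had the lowest value with Combo of all members. Its level was 348, 261 and 431 CPM under DMSO in A1005, A1129 and A1471, 340, 238 and 413 with Crizotinib, 313, 246 and 337 with PD173074, and 227, 126 and 198 with Combo. The 3 Combo libraries were thus below every other library. The log2 change with Combo was -0.92 ± 0.28 (SE, n = 3, edgeR adjusted p = 0.059) in the unpaired fit and -0.92 ± 0.12 (edgeR adjusted p = 0.00014) with the block. Psmd14, the deubiquitinase of the lid, went from 206, 180 and 163 CPM under DMSO to 156, 100 and 66.8 with Combo, a log2 change of -0.82 ± 0.15 with the block (edgeR adjusted p = 0.0013). Psmd12, a further lid subunit whose promoter is given above, went from 242, 185 and 275 to 175, 117 and 136, a log2 change of -0.71 ± 0.11 with the block (edgeR adjusted p = 0.00047). Psmd8, the lid gene with the highest value, was at 132, 143 and 135 CPM under DMSO and at 175, 119 and 173 with Combo, higher in A1005 and A1471 and lower in A1129, and it was not called.

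Among the alpha subunits Psma3 had the lowest value with Combo and Psma2 the highest. Psma3 was at 192, 242 and 288 CPM under DMSO and at 149, 145 and 149 with Combo, so that the SD between lines went from 48.1 to 2.29 CPM. Its log2 change was -0.70 ± 0.22 (SE, edgeR adjusted p = 0.060) in the unpaired fit and -0.67 ± 0.12 (edgeR adjusted p = 0.0011) with the block. Psma2 was at 235, 203 and 352 CPM under DMSO and at 223, 164 and 312 with Combo. The groups of Psma2 overlapped, and it was not called.

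The catalytic subunits stood nearer to 0 than the median of the lid, a difference that was not tested. Psmb5 (ENSMUSG00000022193), which carries the chymotrypsin-like site, was at 72.6, 63.4 and 117 CPM under DMSO, 68.5, 55.6 and 108 with Crizotinib, 62.9, 61.4 and 104 with PD173074, and 69.5, 42.2 and 86.1 with Combo. Its Combo libraries overlapped those of DMSO, and the log2 change was -0.36 ± 0.36 (SE, edgeR adjusted p = 0.58) in the unpaired fit and -0.35 ± 0.12 (edgeR adjusted p = 0.028) with the block. Psmb6 (ENSMUSG00000018286), which carries the caspase-like site, was at 171, 175 and 210 CPM under DMSO, 161, 152 and 197 with Crizotinib, 137, 158 and 189 with PD173074, and 153, 127 and 183 with Combo. Its log2 change with Combo was -0.27 ± 0.10 with the block (edgeR adjusted p = 0.035), and the groups overlapped.

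Psmb7 (ENSMUSG00000026750), which carries the trypsin-like site, was at 236, 204 and 334 CPM under DMSO, 235, 172 and 311 with Crizotinib, 216, 189 and 292 with PD173074, and 242, 132 and 198 with Combo. It was lower with Combo in A1129 and A1471 and nearly level in A1005, where the change was 0.04. The log2 change over the 3 lines was -0.43 ± 0.15 with the block (edgeR adjusted p = 0.030). Of the other beta subunits Psmb3 had the lowest value, at 134, 92.2 and 116 CPM with Combo and a log2 change of -0.60 ± 0.09 with the block (edgeR adjusted p = 0.00030), and Psmb1 the highest, at 323, 254 and 313 CPM under DMSO and 342, 226 and 293 with Combo, which was not called.

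In the base, Psmc6 had the lowest value of the ATPases, from 231, 214 and 320 CPM under DMSO to 185, 147 and 200 with Combo, a log2 change of -0.51 ± 0.10 with the block (edgeR adjusted p = 0.0019). Psmc3 had the highest, at 218, 219 and 221 CPM with Combo beside 248, 225 and 239 under DMSO, and it was not called. Psmd1, a large scaffold subunit of the base, went from 324, 356 and 508 CPM to 272, 264 and 263, a log2 change of -0.53 ± 0.13 with the block (edgeR adjusted p = 0.0056). In Psmd1, as in Psma3, the 3 lines lay closer together with Combo than under DMSO. In other members, such as Psmd2, Psmd14 and Psmb4, they lay further apart. These differences in spread were not tested. Psmd4, a ubiquitin receptor of the base, was at 238, 226 and 280 CPM under DMSO and at 218, 210 and 255 with Combo and was not called.

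The base chaperones, which help to assemble the base and leave it before the particle is complete, did not move alike. Psmd5 went from 145, 119 and 172 CPM under DMSO to 113, 89.0 and 99.9 with Combo, a log2 change of -0.51 ± 0.11 with the block (edgeR adjusted p = 0.0025). Psmd10 (ENSMUSG00000031429), known as gankyrin, was at 47.8, 63.0 and 55.6 CPM under DMSO, 42.6, 56.8 and 44.9 with Crizotinib, 50.7, 59.5 and 68.2 with PD173074, and 75.7, 67.6 and 86.8 with Combo. It was the 1 member that rose with Combo, with a log2 change of 0.48 ± 0.14 with the block (edgeR adjusted p = 0.013) and 0.47 ± 0.18 (edgeR adjusted p = 0.11) in the unpaired fit. The values by line were 0.66, 0.10 and 0.64, and that of A1129 was within its counting interval. In the block fit no member was called higher without A1005 or without A1471.

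Did the combination differ from each single inhibitor? Against Crizotinib, 30 of the 34 members were lower with Combo, with a median log2 change of -0.29. The unpaired fit called Psmd10 higher (log2 change 0.67 ± 0.18 SE, edgeR adjusted p = 0.034) and no other member, beside 5.40% of all genes called higher, while the block fit called 19 members lower and 1 higher, beside 26.0% and 27.4% of all genes, and 10 in all without A1471. The unpaired call of Psmd10 was lost when any 1 of the 3 lines was left out, without the filter on low counts and with the other groups left out of the fit. Leaving out A1005 gave 1 call, in the lower direction, and the other 4 of these fits gave 0. Against PD173074, 30 members were lower with Combo, with a median of -0.28, and the unpaired edgeR fit called 0, with 3 at an unadjusted p under 0.05 and 0 called by DESeq2 and limma-voom. The block fit called 17 lower and 1 higher, beside 20.2% and 19.6% of all genes, but 2 in all without A1129 and 4 without A1471. Fits with a line left out hold fewer libraries, and their shares of all genes are not given here. Among the 4580 genes within the level range of the members, the block fit called 1782 lower and 1022 higher against Crizotinib. Against PD173074 it called 1485 of them lower and 783 higher.

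The departure from additivity, the change with Combo beyond the sum of the single changes on the log2 scale, was negative for 26 of the 34 members, with a median of -0.16. The unpaired edgeR fit called 0 members, with 1 at an unadjusted p under 0.05, and DESeq2 and limma-voom called 0. With the block 1 member was called, Psmd3 at -0.65 ± 0.16 (SE, edgeR adjusted p = 0.027), beside 10.7% of all genes called lower. The call was lost without A1129 and without A1471, each of which left 0 members called. In the replication machinery list 39 of 47 genes were called lower in the block fit and 13 in the unpaired fit, with an unpaired median of -1.30. The unpaired edgeR fit called 126 of all 13836 genes tested lower.

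The inducible proteasome genes went the other way. Psmb8, Psmb9 and Psmb10 code for the catalytic subunits that replace Psmb5, Psmb6 and Psmb7 in the immunoproteasome, and Psme1 and Psme2 for an alternative cap. All 5 were higher with Combo than under DMSO, with a median log2 change of 1.39. The unpaired fit called Psmb10 (1.44 ± 0.41 SE, edgeR adjusted p = 0.041), beside 6.10% of all genes called higher. The block fit called all 5, beside 28.6% of all genes called higher. With Crizotinib all 5 had negative values, with a median of -0.28, and with PD173074 all 5 had positive values, with a median of 0.78, and none was called in either fit. Unadjusted p was under 0.05 for 0 of them with Crizotinib in both fits and for 3 with PD173074 in the block fit.

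Psmb8 and Psmb9 differed widely between the lines under DMSO, whereas Psmb10 did not. Psmb8 had 832 counts under DMSO in A1005, 39 in A1129 and 13 in A1471, and 3023, 44 and 116 counts with Combo. Psmb9 had 144, 18 and 0 counts under DMSO and 653, 17 and 39 with Combo. Psmb10 was at 31.2, 31.2 and 33.7 CPM under DMSO, 23.6, 25.6 and 27.5 with Crizotinib, 54.6, 34.6 and 86.6 with PD173074, and 90.3, 40.9 and 130 with Combo. In A1129 the PD173074 and Combo values of Psmb8 and Psmb9 stayed near those of DMSO.

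Per coding length, Psmb8 made up 46.1% of the sum of Psmb8 and Psmb5 in A1005 under DMSO (95% exact interval 43.8 to 48.5, counting error only) and 69.8% with Combo (68.4 to 71.2), but no more than 8.86% in any library of A1129 and A1471. Psmb10 made up 9.29% of the sum of Psmb10 and Psmb7 in A1471 under DMSO (8.52 to 10.1) and 40.0% with Combo (38.6 to 41.5). The leukocyte marker Ptprc had 174, 205, 339 and 314 counts in A1005 under DMSO, Crizotinib, PD173074 and Combo and at most 2 in the other lines, while Adgre1, Cd3e, Pecam1, Cdh5 and Myh11 had at most 9 in any library. The part of Ptprc-expressing cells in the values of A1005 was not tested.

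**Figure D5:**
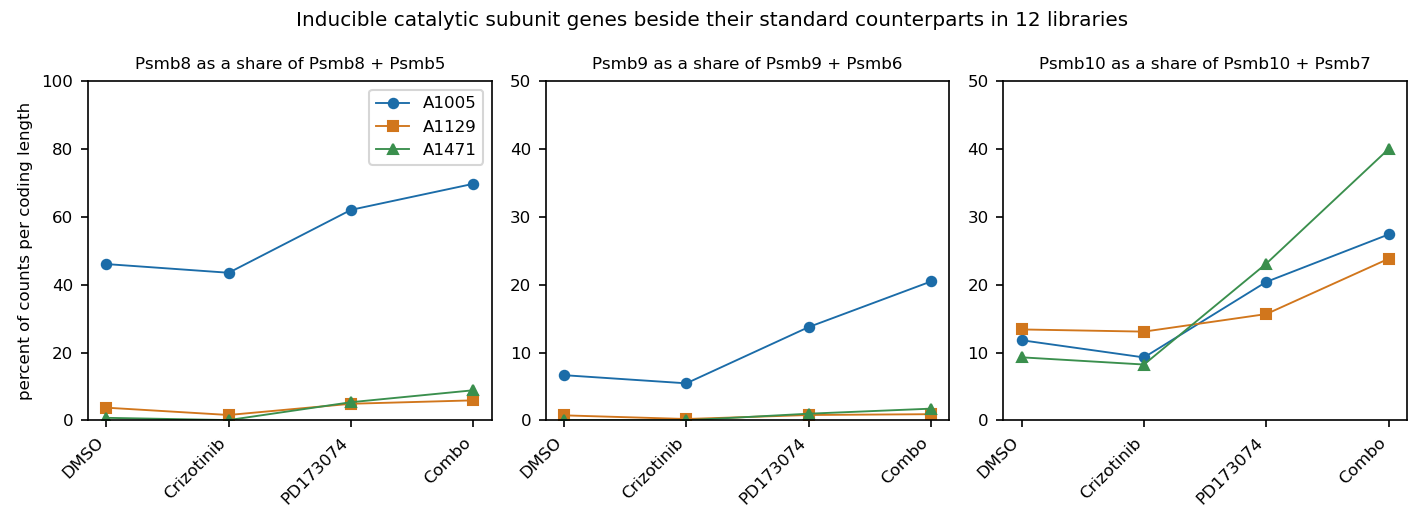
Share of each inducible catalytic subunit gene in the sum with its standard counterpart, in percent of counts per coding length, by treatment, with 1 marker per library and lines joining the libraries of a cell line. The axis of Psmb8 runs to 100 and the others to 50. Psmb8 and Psmb9 are high in A1005 only, at 69.8% for Psmb8 with Combo, whereas Psmb10 with Combo reaches 40.0% in A1471.

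Other genes of the pathway moved in both directions with Combo. Of the 8 genes of other caps, inhibitors and associated proteins, 5 were lower. The unpaired fit called 2 of them lower, Uchl5 and Psme3, beside 8.28% of all genes. Uchl5, a deubiquitinase of the cap, went from 82.7, 129 and 153 CPM under DMSO to 45.3, 63.7 and 51.5, a log2 change of -1.18 ± 0.31 (SE, edgeR adjusted p = 0.033). Psme3, a nuclear cap, went from 174, 203 and 243 to 141, 109 and 150, a log2 change of -0.64 ± 0.19 (edgeR adjusted p = 0.049). Psme4, a large single-chain cap, rose with the block only, from 203, 310 and 366 CPM to 285, 1259 and 813, with a log2 change of 1.29 ± 0.26 (edgeR adjusted p = 0.0021, unpaired 0.087). With the block 4 of the 8 fell and 1 rose, beside 26.2% and 28.6% of all genes.

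Of the 5 chaperones of core assembly, Pomp, Psmg1, Psmg2 and Psmg3 fell with Combo in the block fit, beside 26.2% of all genes. Their log2 changes were -0.42, -0.58, -0.73 and -0.64, and Psmg4 stood at 0.03. The unpaired fit called 0 of the 5 and gave 3 an unadjusted p under 0.05. Among 13 ubiquitin and shuttle genes, the unpaired fit called 1 lower, the shuttle receptor Rad23b (-0.62 ± 0.17 SE, edgeR adjusted p = 0.033), and 1 higher. These counts were near the shares of all genes, 8.28% lower and 6.10% higher. The block fit called 5 lower and 2 higher, beside 26.2% and 28.6% of all genes.

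Among the 7 regulators of proteasome transcription, the unpaired fit called 1, Nfe2l1, which codes for NRF1, the factor known to raise proteasome genes when proteasome activity is short. Nfe2l1 was at 377, 264 and 360 CPM under DMSO, 375, 242 and 337 with Crizotinib, 472, 286 and 436 with PD173074, and 699, 588 and 674 with Combo. All 3 Combo libraries lay above all others, and the log2 change was 0.97 ± 0.24 (SE, edgeR adjusted p = 0.024) in the unpaired fit and 0.99 ± 0.10 (edgeR adjusted p = 4.5e-05) with the block. The block fit also called Maff, a small partner of these factors, lower at -1.06 ± 0.16 (edgeR adjusted p = 0.00036) and Mafk, another, at -0.46 ± 0.13 (edgeR adjusted p = 0.011). Nfe2l2, Mafg, Ddi2 and Ngly1 were not called. Of all genes, 6.10% were called higher in the unpaired fit, and 26.2% lower and 28.6% higher with the block. With Crizotinib the 7 regulators had a median of -0.0006, and 0 were called in either fit.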

How the data were processed

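Total RNA of 12 tumoursphere cultures was sequenced on a NextSeq500. Per the labels, the authors used bcl2fastq, STAR with the mm10 mouse genome and HTSeq, whose settings are not given in the sources used here, and deposited raw read counts per gene, the unit used throughout. Every column of counts was matched to a sample by its label.

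Genes were kept with edgeR's filterByExpr (minimum count 10, minimum total 15) and scaled with trimmed-mean (TMM) factors. Treatments were compared with edgeR 4.0.16 (quasi-likelihood test, all 12 libraries, unpaired as in the study, Benjamini-Hochberg adjusted p under 0.05), with limma 3.58.1 (voom) and DESeq2 1.42.0 as alternatives. Same-numbered libraries come from the same cell line, and for all 18 pairs their deviations from the treatment means correlated at 0.77 or more (mean 0.87, against -0.42 for the 36 pairs of different lines), so the fit with the line as a block is printed where it changes a call. No 2 libraries agreed within sampling noise (lowest chi-square 4.53 per degree of freedom). Log2 changes within a line used a prior count of 2. The models were tested on simulated data.

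Coordinates and lengths came from GENCODE M21 on mm10, promoters from RefSeq on GRCm38.p6 and the Reactome sets from a collection of mouse gene identifiers installed in R. The catalytic subunits were named in every library, and other members were named as the lowest and highest of their structural group with Combo or by the 3 smallest unadjusted p with Crizotinib in the block fit. Psmd14, Psmd12 and Psma7 were chosen after their values were seen. The members and gene lists were chosen with earlier results of these data known. Alternatives were the block, other tools and scalings, no filter, only the groups compared, and each line left out. The values of 1 gene of the other pathway lists are not reported here.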

Additional observations from a re-analysis of the deposited data

Results flagged for a closer look

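A total of 6 changes against DMSO went opposite ways in a pair of lines, each beyond its 95% counting interval. With 1 library per line and treatment the differences between lines were not tested. With PD173074 the log2 change of Psmd1 was 0.06 in A1129 and -0.16 in A1471, a difference of 0.22, that of Psmd2, the other scaffold subunit of the base, was 0.12 in A1129 and -0.19 in A1471, a difference of 0.31, and that of Psmd8 was 0.10 in A1471 and -0.10 in A1129, a difference of 0.19. With Combo, Psma4, an alpha subunit, stood at 0.08 in A1005 and -0.57 in A1471, a difference of 0.65. Psmb1 stood at 0.08 in A1005 and -0.17 in A1129, a difference of 0.25, and Psmd8 at 0.41 in A1005 and -0.27 in A1129, a difference of 0.68. No such pair occurred with Crizotinib among the 34 genes.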

How the results depend on the processing

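The median change of the proteasome genes kept its sign under every alternative run for all 6 comparisons. Leaving out each line in turn moved the PD173074 median of -0.14 to between -0.135 and -0.105, the latter without A1471. Medians of the replication sets with Crizotinib stayed negative under every alternative but moved by more than the spread between lines in 11 cases, all with a line left out. Without A1005 the machinery list went from -0.100 to -0.069 and Activation of the pre-replicative complex from -0.100 to -0.068.

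Counts of called members depended on the pairing. With the cell line as a block the count for Combo went from 0 to 27 against DMSO, from 1 to 20 against Crizotinib, from 0 to 18 against PD173074 and from 0 to 1 for the departure from additivity, and it stayed at 0 for Crizotinib and PD173074 against DMSO. Unpaired DESeq2 called 6 against DMSO and 2 against Crizotinib, counts for which the share of all genes is not given here. Against Crizotinib, 0 were called without the filter and 0 with only the groups compared. Leaving out each line in the unpaired fit gave 0 to 2 calls for Combo against DMSO and 0 to 1 against Crizotinib.

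Alternatives to the block fit were chosen after seeing the data. Leaving out each line gave 13 to 25 calls for Combo against DMSO, 10 to 23 against Crizotinib, 2 to 22 against PD173074 and 0 to 1 for the departure from additivity, for which DESeq2 and DESeq2 size factors in edgeR, both with the replicate block, gave 2 each. Fewer samples enter the fits with a line left out, and the shares of all genes called in these alternative fits are not given here. The cause of the other shifts was not tested.

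Single members changed sign, with no call in either direction. Psmd5 with Crizotinib stood at 0.0027 under total counts, at 0.00075 with only the groups compared, and at -0.051 to 0.039 when each line was left out. With PD173074 leaving out each line moved Psmd1 to as high as 0.034, Psmd2 to between -0.124 and 0.036, and Psmd8 to between -0.040 and 0.046. Psmb1 with Combo lay between -0.113 and 0.0046, the latter without A1129. The span of levels was 6.13-fold per coding length. The counting error of a change in 1 line had a median over the members of at most 0.039 and reached 0.090 for a single member (log2 scale), beside a median standard error of 0.102 in the block fit.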
